A study of Mus musculus with 32 samples.

Results

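The late part of the adult life span was examined in bladders of female C57BL/6 mice, by comparing the 6 untreated old bladders (26 months) with the 5 middle-aged bladders (10 months). These 11 bladders were assigned to their groups by their labels, out of the 32 of the series. The comparison itself was chosen with earlier results of these data known. The study sequenced RNA from whole bladders at 3 ages and from old mice gavaged with water, with vehicle or with the senolytic drugs dasatinib and quercetin. The mice of both groups came from the aging colony of the National Institute on Aging, received no gavage and no drug, and were kept on standard chow. Each library was made from the total RNA of a bladder preserved in RNAlater, with a kit that marks the strand, and the labels give a number per bladder and no further link between bladders. The gavaged old controls (5 water, 4 vehicle, 26 months) and the 6 young bladders (2 months) were used for a further comparison that shares no bladder with the main one. The question addressed is which pathways and cell classes other than senescence markers and immune cells differ between 10 and 26 months, and which genes fall.

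The bladder wall holds an inner urothelium, whose superficial umbrella cells carry uroplakin plaques that keep urine out, a stroma of fibroblasts, vessels and nerves, and the detrusor, the smooth muscle that empties the organ. The detrusor contracts when parasympathetic nerves release acetylcholine onto muscarinic receptors and ATP onto P2X receptors, and it relaxes through potassium channels, adrenergic receptors and cyclic nucleotides. Both calcium transport and contraction consume ATP, which mitochondria make through the electron transport chain.

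The middle-aged libraries held 30509493 to 36564055 counts and the untreated old libraries 30757033 to 52650259. Smooth muscle genes (Myh11, Acta2), uroplakins (Upk1a, Upk3a) and collagens (Col1a1) were abundant in all 11 libraries, as in the labelled tissue. Genes of immune cells took 1.86 to 1.90% of the counts in middle-aged and 2.86 to 5.64% in old bladders, and mitochondrially encoded genes took 2.65 to 3.32% and 2.74 to 3.04%. Untreated old replicate 6 was the deepest library, had the highest share of immunoglobulin counts (2.81%, against 0.375 to 1.22% in the other 5 old bladders), and was the least like its group (median Spearman correlation 0.986 across genes, 0.990 to 0.992 in the others). Since whole bladders were sequenced, a lower level of a transcript can mean fewer cells of a type or less RNA per cell, and these cannot be told apart here.

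Genes that rose between 10 and 26 months changed by more than those that fell. Of 17156 genes that passed the filter on low counts, 2231 were called higher in old bladders (13%) and 1879 lower (11%), 24% in either direction, by edgeR's quasi-likelihood test at a Benjamini-Hochberg adjusted p under 0.05. The median fall among the 1879 was -0.20 on the log2 scale, a decrease of 13.1%, whereas the median rise was 0.63. A change of more than 1.5-fold was reached by 114 of the falls and 1176 of the rises. Values of the 2 groups did not overlap for 2426 of the 4110 called genes, among them 994 of the 1879 lower ones. Outside the immune lists and name patterns, 1867 of 16317 tested genes were lower and 1673 higher, while among the 839 immune genes 558 were higher and 12 lower. On the deposited log2 values with limma, 59.0% of the called genes were lower, against 45.7% with counts, and a shift of -0.05 in the median of all genes went with it. The 2 fits differ in both test and scaling, and the cause of the different split was not tested. Under all 11 fits that each left out 1 bladder, 1651 of the higher and 1230 of the lower genes were called in every fit.

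**Figure D1:**
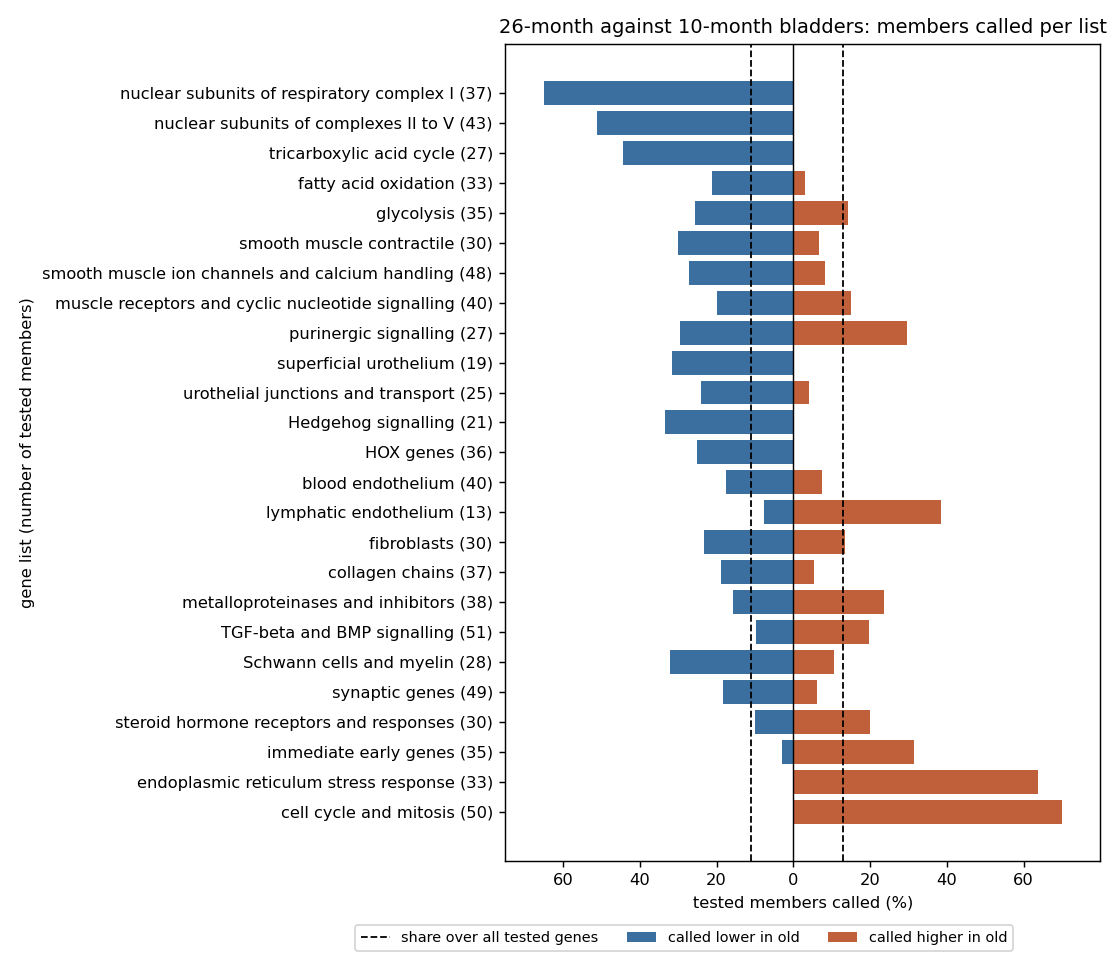
Share of the tested members of 25 gene lists that were called lower (bars to the left) or higher (bars to the right) in untreated old (n = 6) than in middle-aged (n = 5) bladders, with the number of tested members in brackets; dashed lines mark 11% and 13%, the shares over all 17156 tested genes. The longest bars to the left belong to respiratory complex I (24 of 37) and complexes II to V (22 of 43), and the longest to the right to cell cycle (35 of 50) and endoplasmic reticulum stress response genes (21 of 33).

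Many genes for the electron transport chain were lower in old bladders. Complex I takes electrons from NADH, and 24 of its 37 nuclear-encoded subunits, all of which were tested, were called lower and 0 higher (11% and 13% over all genes). All 37 had a log2 fold change below 0, from -0.26 to -0.007, with a median of -0.13, against -0.005 over all genes. Ndufa5, a subunit of the peripheral arm, measured 54.03, 50.9, 53.05, 53.9 and 47.6 CPM (counts scaled to library size, normalized) at 10 months and 39.3 to 46.1 CPM (median 43.8) at 26 months. Values of the groups did not overlap (log2 fold change -0.26 ± 0.05 SE, adjusted p = 0.0018). Ndufa6 was lower by a similar amount (log2 fold change -0.22 ± 0.04 SE, adjusted p = 0.001), as was Ndufv3 (log2 fold change -0.20 ± 0.03 SE, adjusted p = 0.00026). Of the 43 tested subunits of complexes II to V (45 on the list), 22 were lower and 0 higher, with a median of -0.11. Cox6c, a subunit of cytochrome c oxidase whose gene span overlaps that of Vps13b, gave 349, 338, 348, 340.3 and 327 CPM in the middle-aged group and 251 to 289 CPM (median 280.2) in the old group. Every old bladder lay below every middle-aged one (log2 fold change -0.31 ± 0.04 SE, adjusted p = 0.00015). Cox4i1, of the same enzyme, fell by 0.19 on the log2 scale, and Sdhc, of succinate dehydrogenase, by 0.18.

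Of 13 mitochondrially encoded subunits 2 were lower, namely mt-Co2 (log2 fold change -0.36 ± 0.10 SE, adjusted p = 0.02) and mt-Nd4 (log2 fold change -0.16 ± 0.05 SE, adjusted p = 0.027, overlapping mt-Nd4l), and the median over the 13 was -0.12. Of 27 enzymes of the tricarboxylic acid cycle and pyruvate entry, 12 were lower and 0 higher, led by Pdk2, a kinase that inhibits pyruvate dehydrogenase (log2 fold change -0.33 ± 0.05 SE, adjusted p = 0.00031), and Idh3b, of isocitrate dehydrogenase (log2 fold change -0.19 ± 0.03 SE, adjusted p = 0.0012). Cytoplasmic ribosomal proteins had 7 of 78 tested members lower (8.97%, below the 11% over all genes) and 0 higher, with a median of -0.08. The 7 ranged from 3 without old replicates 1 or 6 to 20 without middle-aged replicate 2. In a single fit of all 6 groups, 4 complex I subunits, 5 subunits of complexes II to V, 5 cycle enzymes and 0 ribosomal proteins were called lower. Leaving out 1 bladder gave 17 to 25 calls for complex I and 16 to 26 for complexes II to V, and for the cycle enzymes 7 without middle-aged replicates 4 or 6 or old replicates 1, 5 or 6 and 7 with no filter on low counts. The 2 mitochondrially encoded genes became 0 without middle-aged replicates 2 or 4, 7 without middle-aged replicate 5, and 4 with DESeq2. Calls that were lost without 1 bladder were those of mt-Co2 (without middle-aged 2 or 4, adjusted p up to 0.051) and mt-Nd4 (without middle-aged 1, 2, 4 or 6 and old 3 or 5, adjusted p up to 0.064).

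The start regions of the 2 complex I genes with the largest falls are shown because a shared letter pattern occurs in both, GCGCA followed by any base and GCGC, the core to which the respiratory factor NRF1 is known to bind. Sequences are from RefSeq (GRCm38.p6), run from 250 bases before to 50 after the first listed start, 5′ to 3′, with the pattern in capitals. Ndufa5 lies on the minus strand at chr6:24527477-24527776 and Ndufa6 on the minus strand at chr15:82354242-82354541.
Ndufa5: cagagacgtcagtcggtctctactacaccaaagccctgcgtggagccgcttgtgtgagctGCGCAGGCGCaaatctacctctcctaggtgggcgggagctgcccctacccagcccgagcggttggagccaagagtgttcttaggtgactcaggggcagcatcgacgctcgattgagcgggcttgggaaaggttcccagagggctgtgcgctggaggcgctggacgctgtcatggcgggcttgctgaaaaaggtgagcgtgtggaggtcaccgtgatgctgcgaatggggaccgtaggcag
Ndufa6: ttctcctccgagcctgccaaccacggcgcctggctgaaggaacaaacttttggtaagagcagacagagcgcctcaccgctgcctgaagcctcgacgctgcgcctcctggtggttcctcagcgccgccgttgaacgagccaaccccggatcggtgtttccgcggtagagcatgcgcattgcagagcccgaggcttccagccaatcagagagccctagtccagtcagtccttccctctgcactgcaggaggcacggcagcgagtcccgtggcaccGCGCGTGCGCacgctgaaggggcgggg
Read on both strands, the pattern was present in 7 of the 33 complex I promoters that could be matched by symbol (37 list members) and in 9 of the 34 matched for complexes II to V (45 members), or 21.2% and 26.5%, against 4.78% of 27025 promoters of the same length. Of these 7 and 9 genes, 3 and 6 were called lower in old bladders. A match describes letters and says nothing of binding.

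Genes of glycolysis and glycogen use moved in both directions, 9 lower and 5 higher of 35, with a median of -0.02. The shares were 25.7% lower and 14.3% higher, against 11% and 13% over all genes, so the higher share was near that of all genes. The glucose transporter of muscle and fat, Slc2a4 (GLUT4), measured 151, 142, 151, 150.5 and 166 CPM in middle-aged bladders and 94.1 to 121 CPM (median 102) in old bladders. It had no overlap between groups (log2 fold change -0.55 ± 0.06 SE, adjusted p = 3.82e-05). Pygm, muscle glycogen phosphorylase, ranged from 41.8 to 52.2 CPM (median 48.5) in old bladders, below the 70.97, 68.4, 66.6, 65 and 67.9 of middle-aged ones (log2 fold change -0.49 ± 0.05 SE, adjusted p = 3.95e-05). Pfkm, muscle phosphofructokinase (-0.33), Pygl (-0.33) and the muscle creatine kinase Ckm (-0.33) were called lower as well. The 5 higher ones were Pfkfb3, which makes the activator of phosphofructokinase (log2 fold change 0.53 ± 0.05 SE, adjusted p = 9.52e-06), Slc2a3 (0.35), Slc16a3 (0.35), Eno1 (0.22) and Ldha (0.14). Of 33 genes of fatty acid oxidation 7 were lower and 1 higher, against 11% and 13% over all genes. In a single fit of all 6 groups the glycolysis list had 4 lower and 2 higher, and fatty acid oxidation 3 lower and 0 higher. Without middle-aged replicate 4 the glycolysis list had 6 lower. When bladders were left out in turn, the call was lost for Slc16a3 (without middle-aged 1, 2, 4, 5 or 6 and old 1, 3, 5 or 6, adjusted p up to 0.1) and Ldha (without middle-aged 2, 4 or 6 and old 1, 2, 3, 5 or 6, adjusted p up to 0.13).

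**Figure D2:**
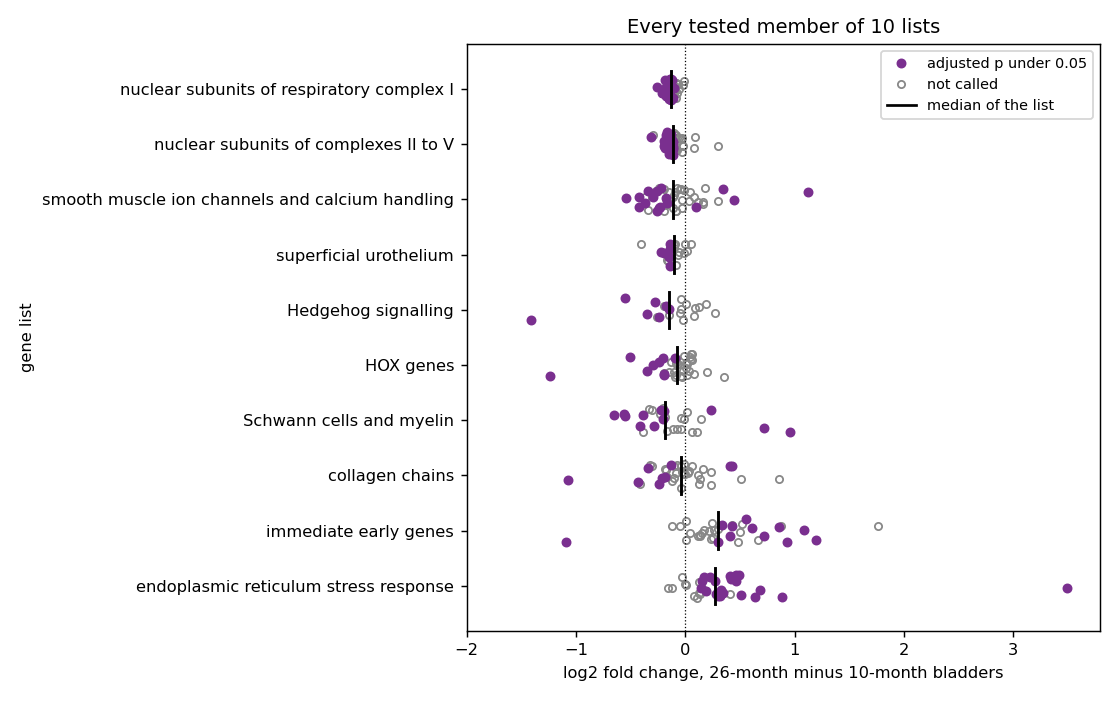
Log2 fold change (26-month minus 10-month bladders) of every tested member of 10 lists, 1 point per gene; filled points have an adjusted p under 0.05 and the black bar is the list median. Most respiratory subunits lie in a narrow band just below 0 (medians -0.13 and -0.11), Schwann cell genes spread more widely around -0.19, and most endoplasmic reticulum stress response genes lie above 0, with a median of 0.27.

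Part of the detrusor genes for calcium and potassium handling were lower in old bladders. Of the 48 ion channels and calcium transporters on the smooth muscle list, all tested, 13 were lower and 4 higher (median -0.11), and 11 to 17 were lower when 1 bladder was left out. The 4 higher became 2 in a single fit of all 6 groups. Kcnh2 encodes the ERG potassium channel and gave 72.2, 70.6, 81.2, 74.4 and 81.5 CPM at 10 months and 43.3 to 62.1 CPM (median 51.7) at 26 months. The 2 age groups did not overlap (log2 fold change -0.54 ± 0.08 SE, adjusted p = 0.00054). Kcnq5, of a voltage-gated potassium channel, fell with it (log2 fold change -0.42 ± 0.09 SE, adjusted p = 0.0037). The L-type calcium channel, through which the detrusor takes up calcium, was lower in both its pore gene Cacna1c (log2 fold change -0.24 ± 0.06 SE, adjusted p = 0.0075) and its accessory gene Cacnb2 (log2 fold change -0.34 ± 0.05 SE, adjusted p = 0.00061). Atp2a2, the pump that refills the sarcoplasmic reticulum, measured 1150.0, 1047, 1137, 1055 and 1169 CPM in the middle-aged group and 919 to 995 CPM (median 950.0) in the old group. Its old bladders all lay below the middle-aged ones (log2 fold change -0.22 ± 0.04 SE, adjusted p = 0.0022). Casq2, which binds calcium in that store (-0.23), and Slc8a1, the sodium-calcium exchanger (-0.26), fell too. The inositol trisphosphate receptors, which release calcium from the store, went opposite ways: Itpr1 fell (log2 fold change -0.17 ± 0.05 SE, adjusted p = 0.031) and Itpr2 rose (log2 fold change 0.35 ± 0.04 SE, adjusted p = 0.00012). The call did not hold without single bladders for Itpr1 (without middle-aged 1, 2 or 6 and old 1, 2, 3, 4 or 6, adjusted p up to 0.081).

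Genes of contractile proteins were lower in part: of 30 genes, all tested, 9 were lower and 2 higher (median -0.10). Smtn, smoothelin of contractile smooth muscle, gave 1070.0, 981, 1106, 1212 and 1073 CPM in middle-aged bladders and 809 to 923 CPM (median 876) in old bladders. The groups did not overlap (log2 fold change -0.32 ± 0.06 SE, adjusted p = 0.0011). Jph2, which holds the store against the plasma membrane (-0.24), Lmod1 (-0.22), the transcriptional coactivator Myocd (-0.19) and Myh11, the smooth muscle myosin heavy chain (log2 fold change -0.24 ± 0.07 SE, adjusted p = 0.03), were also called. The abundant actins Acta2 (log2 fold change -0.10 ± 0.07 SE, adjusted p = 0.39) and Actg2 (log2 fold change 0.15 ± 0.14 SE, adjusted p = 0.48) were not called. Hspb7 (0.50) and the integrin gene Itga8 (0.49) rose. The 9 calls became 5 in a single fit of all 6 groups or with no filter on low counts, 4 without middle-aged replicate 5 or old replicate 2, and 5 without middle-aged replicates 4 or 6 or old replicates 3 or 6. Leaving out single bladders ended the call of Myocd (without middle-aged 2, 5 or 6 and old 2, 3 or 6, adjusted p up to 0.079) and Myh11 (without middle-aged 1, 4, 5 or 6 and old 1 or 2, adjusted p up to 0.072).

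Receptors of the muscle were divided. Chrm2, the more abundant muscarinic receptor of detrusor in general, stood at 27, 33.6, 27.8, 22.7 and 25.7 CPM at 10 months and 39.6 to 65.3 CPM (median 48.5) at 26 months. Every old bladder exceeded every middle-aged one (log2 fold change 0.91 ± 0.13 SE, adjusted p = 0.00035). Both subunits of soluble guanylate cyclase, the nitric oxide receptor, were lower: Gucy1a1 (log2 fold change -0.30 ± 0.06 SE, adjusted p = 0.0028) and Gucy1b1 (log2 fold change -0.19 ± 0.05 SE, adjusted p = 0.0087). Pde5a, which degrades cyclic GMP (log2 fold change -0.26 ± 0.07 SE, adjusted p = 0.018), and Ppp1r12b, of myosin phosphatase (-0.24), and Ppp1r14a, an inhibitor of that phosphatase (-0.20), fell as well. In all, 8 of 40 tested members of this list (41 listed) were lower and 6 higher, or 20% and 15%. Over all genes 11% were lower and 13% higher, so the share of higher members was near that of all genes. The counts of the list became 5 lower without middle-aged replicate 6, and 3 higher without middle-aged replicate 4 and 2 higher in a single fit of all 6 groups or with limma. Calls that were lost without 1 bladder were those of Pde5a (without middle-aged 6, adjusted p 0.051).

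ATP and adenosine signalling had 8 lower and 8 higher genes among 27 tested (29 listed). The lower ones included P2rx1, the ATP-gated channel of detrusor, at 868, 797, 914, 979 and 824 CPM in the middle-aged group and 672 to 767 CPM (median 718) in the old group. Its groups did not overlap (log2 fold change -0.29 ± 0.06 SE, adjusted p = 0.003). P2rx6, which overlaps Slc7a4, was also lower (log2 fold change -0.74 ± 0.08 SE, adjusted p = 2.91e-05), and so were Slc29a1, which takes up adenosine (-0.35), and the adenosine receptor gene Adora2b (-0.42). Among those that rose was Adora2a, a receptor found on many leukocytes as well (log2 fold change 0.90 ± 0.09 SE, adjusted p = 1.81e-05). P2ry12, P2ry13 and P2ry14, which lie within Med12l, rose by 0.26, 0.73 and 0.72. The higher count was 5 without middle-aged replicate 4 or old replicate 6, and the lower count was 4 in a single fit of all 6 groups. When bladders were left out in turn, the call was lost for P2ry12 (without middle-aged 1, 4 or 6 and old 2, 3, 5 or 6, adjusted p up to 0.095).

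**Figure D3:**
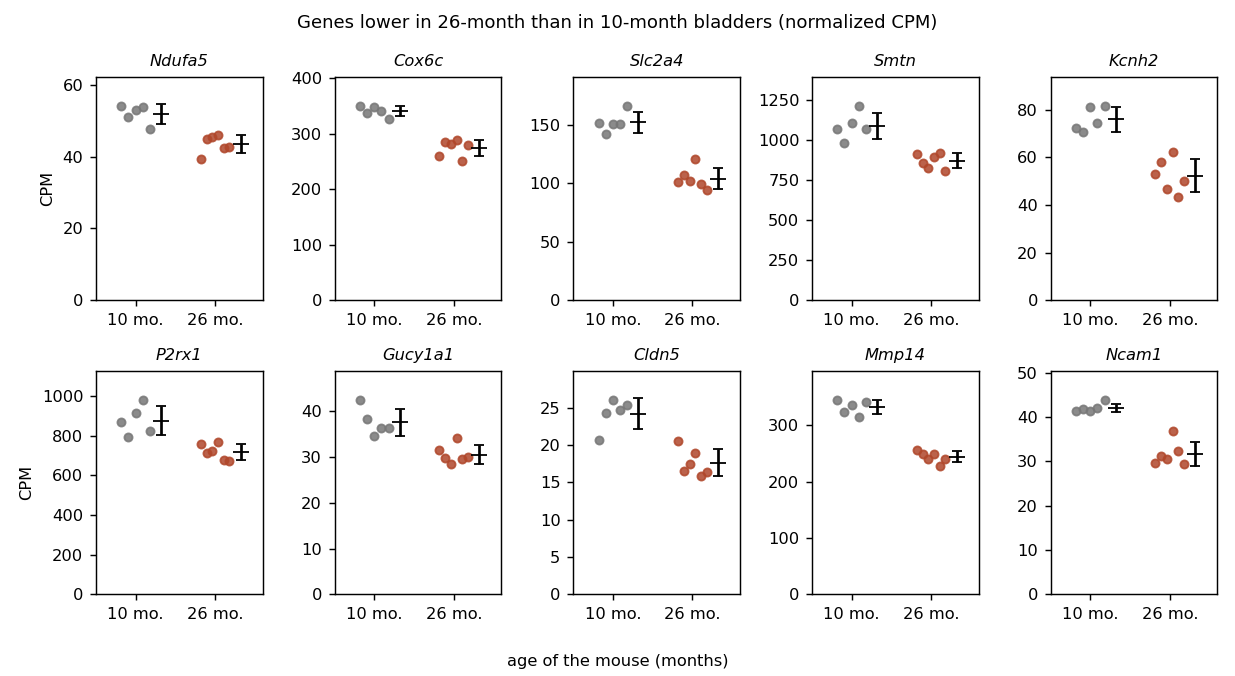
Normalized level (CPM) of 10 genes in each middle-aged (10 months, n = 5) and untreated old (26 months, n = 6) bladder; points are bladders and the bar with whiskers is the mean ± SD, with each axis starting at 0. These 10 genes were chosen with their values known. In all 10 panels the highest old bladder lies below the lowest middle-aged bladder, with log2 fold changes from -0.26 (Ndufa5) to -0.55 (Slc2a4).

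The urothelium showed small falls in its superficial layer. Of 19 superficial genes, 6 were lower and 0 higher (median -0.11). Upk3a, a uroplakin, measured 815, 758, 764, 808 and 764 CPM in middle-aged bladders and 613 to 711 CPM (median 694) in old bladders. Values of the groups did not overlap (log2 fold change -0.19 ± 0.04 SE, adjusted p = 0.0069). Upk1a (log2 fold change -0.15 ± 0.04 SE, adjusted p = 0.017) and Upk2 (log2 fold change -0.23 ± 0.06 SE, adjusted p = 0.014) were called too, as were the keratins Krt18 (-0.14) and Krt19 (-0.14). Among 25 tested junction and transport genes (26 listed), 6 were lower and 1 higher. Epcam, an epithelial adhesion molecule (log2 fold change -0.29 ± 0.05 SE, adjusted p = 0.00082), and the claudin Cldn23 (log2 fold change -0.32 ± 0.08 SE, adjusted p = 0.0097) were lower, whereas Cldn1 rose (0.34). Of 13 tested basal genes (16 listed) 1 was lower, Shh (log2 fold change -0.18 ± 0.05 SE, adjusted p = 0.027), and 1 was higher, Krt14 (log2 fold change 2.76 ± 0.87 SE, adjusted p = 0.035). Each is 7.69% of the tested basal genes, below the 11% lower and 13% higher over all genes. Krt14 was at 0.0983, 0.128, 0.221, 0.532 and 0.4105 CPM in middle-aged and 0.347 to 7.65 CPM (median 0.954) in old bladders, which overlapped. In a single fit of all 6 groups 0 of the 19 superficial genes and 3 of the junction genes were called lower. The call did not hold without single bladders for Krt18 (without middle-aged 1 or 5 and old 1, 2, 3, 5 or 6, adjusted p up to 0.083), Krt19 (without middle-aged 2, 4, 5 or 6 and old 1, 2, 3 or 6, adjusted p up to 0.085), Shh (without middle-aged 2, 4 or 6 and old 1 or 3, adjusted p up to 0.069) and Krt14 (without middle-aged 1, 2, 4 or 6, adjusted p up to 0.078).

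Among genes of Hedgehog signalling, by which the urothelium signals to the stroma, and HOX genes of positional identity, some were lower and none passed the test as higher. Of 21 Hedgehog genes 7 were lower and 0 higher (median -0.15): besides Shh these included Hhatl, a relative of the enzyme that modifies the ligand (log2 fold change -1.41 ± 0.24 SE, adjusted p = 0.0012), the ligand gene Dhh, which overlaps Rhebl1 (log2 fold change -0.55 ± 0.16 SE, adjusted p = 0.027), the co-receptor Cdon (log2 fold change -0.35 ± 0.08 SE, adjusted p = 0.0072), Scube2, which releases the ligand (log2 fold change -0.28 ± 0.07 SE, adjusted p = 0.013), and Smo, the signal transducer (log2 fold change -0.15 ± 0.04 SE, adjusted p = 0.019). Hhatl is also on the skeletal muscle list, and the tissue behind its fall was not tested. Its level was low, at 0.952 to 2.05 CPM in middle-aged and 0.372 to 0.909 CPM in old bladders. Of 36 tested HOX genes (39 listed) 9 were lower and 0 higher, and all but Hoxd4 lie toward the posterior end of their clusters. Hoxb13 was at 0.786, 0.544, 0.579, 0.756 and 0.985 CPM in middle-aged and 0.06497 to 0.411 CPM (median 0.344) in old bladders, with no overlap (log2 fold change -1.24 ± 0.30 SE, adjusted p = 0.0095). Hoxa13 was more abundant, at 66.97, 71.8, 70.2, 66.01 and 69.5 CPM at 10 months and 55.8 to 64.4 CPM (median 59.9) at 26 months. It also separated the groups (log2 fold change -0.20 ± 0.04 SE, adjusted p = 0.0028). Hoxc11 (-0.35), Hoxd10 (-0.30), Hoxd12 (-0.50) and Hoxa9 (-0.19) were lower as well. In a single fit of all 6 groups, 4 Hedgehog and 4 HOX genes were lower. Leaving out single bladders ended the call of Dhh (without middle-aged 1, 2 or 4 and old 2, 3 or 5, adjusted p up to 0.074).

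Endothelial lists were read by vessel type, and the difference between them was not tested. In blood endothelium 7 of 40 genes were lower and 3 higher. Cldn5, the main claudin of endothelial tight junctions, gave 20.7, 24.2, 25.97, 24.7 and 25.4 CPM in the middle-aged group and 15.9 to 20.6 CPM (median 17.02) in the old group. The 2 age groups did not overlap (log2 fold change -0.46 ± 0.08 SE, adjusted p = 0.00095). Angpt2, an antagonist of the Tie2 receptor (log2 fold change -0.44 ± 0.11 SE, adjusted p = 0.013), the receptor gene Tie1 (log2 fold change -0.20 ± 0.04 SE, adjusted p = 0.0023) and the endothelial cadherin Cdh5 (-0.19) were also lower. Vwf, which binds platelets, rose (log2 fold change 0.32 ± 0.06 SE, adjusted p = 0.0032), and so did Esm1 (log2 fold change 0.78 ± 0.17 SE, adjusted p = 0.0047), whose span overlaps Gzmk of cytotoxic T cells. In lymphatic endothelium 5 of 13 tested genes were higher and 1 lower. Lyve1, a hyaluronan receptor of lymphatic vessels and of some macrophages, stood at 29.4, 25.5, 28.9, 26.6 and 25.6 CPM in middle-aged bladders and 32.9 to 49.5 CPM (median 46.4) in old bladders, which did not overlap (log2 fold change 0.70 ± 0.09 SE, adjusted p = 0.00016). Among 14 tested genes of activated endothelium and high endothelial venules (15 listed), 7 were higher and 0 lower, including Vcam1 (log2 fold change 0.72 ± 0.08 SE, adjusted p = 7.10e-05) and Icam1 (log2 fold change 0.61 ± 0.11 SE, adjusted p = 0.0014), through which leukocytes adhere. Glycam1, a ligand of L-selectin in those venules, was at 0, 0, 0.0276, 0 and 0.602 CPM in middle-aged and 0.195 to 9.46 CPM (median 2.72) in old bladders, which overlapped. Summed T cell genes were 56.5 to 64.1 CPM in middle-aged and 156.6 to 299.0 CPM in old bladders, and their part in the endothelial rises was not tested. In a single fit of all 6 groups 1 blood endothelial gene and 4 genes of activated endothelium were higher. Calls that were lost without 1 bladder were those of Cdh5 (without middle-aged 4 or 5 and old 5, adjusted p up to 0.061).

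Fibroblast and collagen genes held calls in both directions. Of 30 fibroblast genes 7 were lower (23.3%) and 4 higher (13.3%), and of 37 collagen chains (39 listed) 7 were lower (18.9%) and 2 higher (5.41%). Over all genes 11% were lower and 13% higher. The share of higher members was thus near that of all genes for fibroblasts and below it for collagen chains. Lum, lumican of collagen fibrils (log2 fold change -0.41 ± 0.09 SE, adjusted p = 0.005), Tcf21, a fibroblast transcription factor (log2 fold change -0.37 ± 0.07 SE, adjusted p = 0.0023), and Col15a1, of basement membrane zones (log2 fold change -0.34 ± 0.07 SE, adjusted p = 0.0037), were lower. Col5a3 (log2 fold change -0.43 ± 0.07 SE, adjusted p = 0.001) and Col6a6 (log2 fold change -1.08 ± 0.23 SE, adjusted p = 0.0042) had the largest falls among collagen chains, while the fibrillar chains Col1a1 (log2 fold change -0.18 ± 0.08 SE, adjusted p = 0.14), Col1a2 (-0.17) and Col3a1 (-0.16) were not called. Col12a1 (0.43) and Col8a1 (0.41) rose. With all 6 groups fitted together 1 collagen chain was lower and 1 higher. When bladders were left out in turn, the call was lost for Col8a1 (without middle-aged 1 or 6, adjusted p up to 0.057).

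Metalloproteinases moved in both directions, 6 lower (15.8%) and 9 higher (23.7%) of 38 tested (45 listed), against 11% and 13% over all genes. Mmp14, the membrane-bound enzyme that activates the product of Mmp2, measured 345, 324, 336, 316 and 342 CPM at 10 months and 229 to 257 CPM (median 245) at 26 months. The groups did not overlap (log2 fold change -0.45 ± 0.04 SE, adjusted p = 6.24e-06). Mmp2, gelatinase A (log2 fold change -0.40 ± 0.06 SE, adjusted p = 0.0006), Mmp11 (log2 fold change -0.52 ± 0.04 SE, adjusted p = 7.74e-06) and Mmp9 (log2 fold change -0.53 ± 0.11 SE, adjusted p = 0.0045) were lower with it, whereas Mmp12, macrophage elastase, rose from 0.491, 0.4799, 0.331, 0.168 and 0.192 CPM to 0.585 to 3.01 CPM (median 2.21) (log2 fold change 2.56 ± 0.42 SE, adjusted p = 0.00085). Growth factor carriers that stromal cells secrete, Igfbp3 (log2 fold change -0.50 ± 0.12 SE, adjusted p = 0.011) and Igfbp5 (log2 fold change -0.40 ± 0.09 SE, adjusted p = 0.0074), were lower, and Bdnf (log2 fold change 1.26 ± 0.30 SE, adjusted p = 0.0093) and Areg (log2 fold change 1.02 ± 0.26 SE, adjusted p = 0.012) were higher, in a list with 10 lower (14.9%) and 8 higher (11.9%) of 67 tested, near the 11% and 13% over all genes. Its 8 higher calls became 4 without middle-aged replicate 4 and 1 in a single fit of all 6 groups.

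Ccn2, the matricellular protein CTGF, stood at 31.5, 14.6, 8.85, 30.9 and 17.1 CPM in the middle-aged group and 48.7 to 131 CPM (median 70.2) in the old group. All old bladders exceeded all middle-aged ones (log2 fold change 1.88 ± 0.33 SE, adjusted p = 0.0013), although the spread among them was wide. Fst, which binds activin, rose from 1.802, 1.504, 2.23, 1.88 and 2.35 CPM in middle-aged to 4.02 to 9.47 CPM (median 6.24) in old bladders, without overlap (log2 fold change 1.74 ± 0.20 SE, adjusted p = 7.53e-05). Grem1, a BMP antagonist (log2 fold change 1.26 ± 0.36 SE, adjusted p = 0.024), Thbs4 (log2 fold change 2.17 ± 0.32 SE, adjusted p = 0.00044), Ogn (log2 fold change 0.70 ± 0.12 SE, adjusted p = 0.0011) and Adamtsl2 (log2 fold change 1.74 ± 0.34 SE, adjusted p = 0.0028) were also higher, and Smad9, a mediator of BMP signals, was lower (log2 fold change -0.40 ± 0.09 SE, adjusted p = 0.005). Of 51 genes for TGF-beta and BMP signalling 10 were higher (19.6%) and 5 lower (9.80%), against 13% and 11% over all genes. Leaving out middle-aged replicate 4 gave 6 higher, and leaving out old replicate 5 gave 3 lower. With all 6 groups fitted together 2 were higher and 3 lower. Ccn2 is on another list, that of matrix proteoglycans and glycoproteins. That list had 8 higher (15.1%) and 7 lower (13.2%) of 53 tested (55 listed), near the 13% and 11% over all genes. Its 8 higher became 2 in the fit of all 6 groups. Thbs4 was of low level, at 0.160 to 0.308 CPM in middle-aged and 0.429 to 1.33 CPM in old bladders. Grem1 was low as well, at 0.196 to 0.766 CPM in middle-aged and 0.845 to 2.63 CPM in old bladders. The call did not hold without single bladders for Grem1 (without middle-aged 4, adjusted p 0.055).

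Among genes of the nerves, more glial genes were lower than higher. Of 28 tested Schwann cell genes (30 listed) 9 were lower and 3 higher, with a median of -0.19. Ncam1, an adhesion molecule of non-myelinating Schwann cells and nerves, gave 41.4, 41.8, 41.5, 41.98 and 43.8 CPM in middle-aged bladders and 29.4 to 36.8 CPM (median 30.8) in old bladders. Values of the groups did not overlap (log2 fold change -0.41 ± 0.05 SE, adjusted p = 0.00016). Foxd3, a factor of the glial lineage (log2 fold change -0.66 ± 0.11 SE, adjusted p = 0.0012), Kcna2 (log2 fold change -0.39 ± 0.10 SE, adjusted p = 0.013) and S100b (log2 fold change -0.29 ± 0.09 SE, adjusted p = 0.034) were lower, but the myelin gene Mbp was not called (log2 fold change 0.11 ± 0.04 SE, adjusted p = 0.099), and Mag was higher (log2 fold change 0.96 ± 0.27 SE, adjusted p = 0.021). The 9 falls became 4 without middle-aged replicate 4 or old replicate 5, and 4 in a single fit of all 6 groups. Neuronal genes were mixed, 5 higher and 3 lower of 18 tested (36 listed). Uchl1, the most abundant of them, fell (log2 fold change -0.43 ± 0.07 SE, adjusted p = 0.00085), as did Slc6a2, the noradrenaline transporter (log2 fold change -0.52 ± 0.17 SE, adjusted p = 0.043), whereas Tubb3 (log2 fold change 0.95 ± 0.30 SE, adjusted p = 0.038) and Ret, the GDNF receptor (log2 fold change 0.76 ± 0.18 SE, adjusted p = 0.0082), rose. The 5 rises became 3 without old replicate 2 and 2 without old replicate 6, and in a single fit of all 6 groups 2 neuronal genes were higher and 0 lower. Synaptic genes had 9 lower and 3 higher of 49 tested (56 listed), among them Sv2a (-0.56) and Nlgn3 (-0.34) below and Dlg2 (0.59) above. Leaving out single bladders ended the call of S100b (without middle-aged 1, 2 or 4 and old 2, 4 or 5, adjusted p up to 0.081), Mag (without middle-aged 6, adjusted p 0.055), Slc6a2 (without middle-aged 1, 2, 4 or 6 and old 1, 3 or 4, adjusted p up to 0.1) and Tubb3 (without middle-aged 1, 2, 4 or 5 and old 2, 3 or 6, adjusted p up to 0.087).

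Several genes that steroid hormones induce were higher in old bladders. Fkbp5, a co-chaperone that glucocorticoids induce, stood at 31.5, 34.6, 37.6, 29.4 and 36.3 CPM at 10 months and 68.05 to 91.2 CPM (median 78.1) at 26 months. The 2 age groups did not overlap (log2 fold change 1.21 ± 0.08 SE, adjusted p = 2.66e-06). Zbtb16 (log2 fold change 1.16 ± 0.23 SE, adjusted p = 0.0028), Tsc22d3, also called GILZ (log2 fold change 0.47 ± 0.14 SE, adjusted p = 0.023), and Klf9 (log2 fold change 0.37 ± 0.12 SE, adjusted p = 0.045) were higher too, and 6 of 30 tested steroid genes (33 listed) rose while 3 fell. Per2, a clock gene that glucocorticoids also induce, was higher (log2 fold change 0.53 ± 0.13 SE, adjusted p = 0.01) and the clock activators Arntl (log2 fold change -0.61 ± 0.18 SE, adjusted p = 0.025) and Npas2 (log2 fold change -0.49 ± 0.11 SE, adjusted p = 0.0061) were lower, out of 3 higher and 3 lower of 27 clock genes (11.1% each, near the shares over all genes). The 3 lower became 1 without old replicate 5, and a single fit of all 6 groups gave 1 higher and 1 lower. The hour at which bladders were taken is not given in the sources used here. Immediate early genes, which respond within minutes to handling and stimulation, had 11 higher and 1 lower of 35 tested (37 listed), including Nr4a1 (log2 fold change 1.20 ± 0.37 SE, adjusted p = 0.032), Dusp1 (log2 fold change 0.93 ± 0.27 SE, adjusted p = 0.024) and Socs3 (log2 fold change 1.09 ± 0.26 SE, adjusted p = 0.0092). These 11 became 6 without middle-aged replicate 4 and 7 without middle-aged replicate 6, and 5 in a single fit of all 6 groups. Calls that were lost without 1 bladder were those of Tsc22d3 (without middle-aged 2, 4 or 5, adjusted p up to 0.066), Klf9 (without middle-aged 1, 2, 4, 5 or 6 and old 1, 2, 3, 5 or 6, adjusted p up to 0.1), Arntl (without middle-aged 1 or 2 and old 5, adjusted p up to 0.065), Nr4a1 (without middle-aged 2, 4, 5 or 6 and old 4, 5 or 6, adjusted p up to 0.082) and Dusp1 (without middle-aged 4, 5 or 6, adjusted p up to 0.062).

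**Figure D4:**
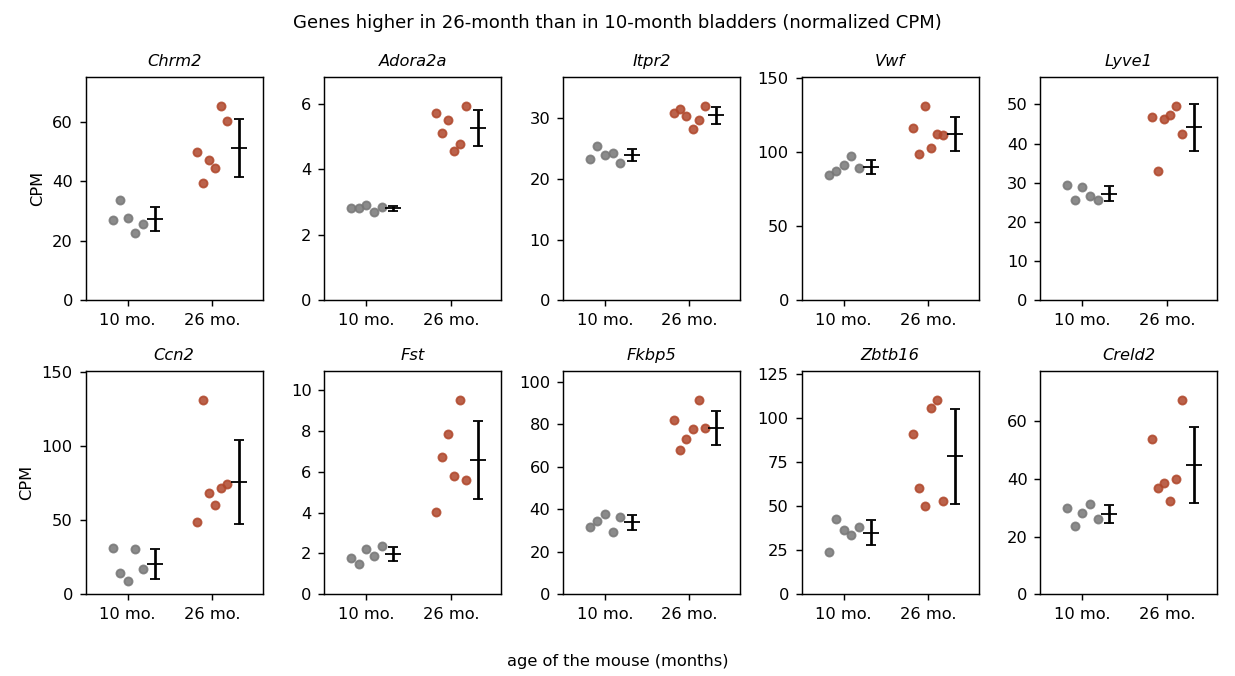
Normalized level (CPM) of 10 genes in each middle-aged (10 months, n = 5) and untreated old (26 months, n = 6) bladder; points are bladders and the bar with whiskers is the mean ± SD, with each axis starting at 0. These 10 genes were chosen with their values known. The lowest old bladder lies above the highest middle-aged bladder in every panel, with log2 fold changes from 0.32 (Vwf) to 1.88 (Ccn2), and the old bladders spread widely for Ccn2 and Zbtb16.

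Most genes on the list of the endoplasmic reticulum stress response rose: 21 of 33 were higher and 0 lower, with a median of 0.27, and 16 to 22 were called when 1 bladder was left out. Hspa5, the main chaperone of the compartment (BiP), measured 356, 280.0, 388, 359.8 and 298 CPM in the middle-aged group and 376 to 558 CPM (median 454) in the old group. The groups overlapped (log2 fold change 0.47 ± 0.11 SE, adjusted p = 0.008). Creld2 (log2 fold change 0.69 ± 0.17 SE, adjusted p = 0.01), Sdf2l1 (log2 fold change 0.88 ± 0.14 SE, adjusted p = 0.00076) and Edem1 (log2 fold change 0.64 ± 0.13 SE, adjusted p = 0.0031) separated the groups, and Derl3, which takes part in the export of misfolded proteins and is also a plasma cell gene, rose most (log2 fold change 3.49 ± 0.50 SE, adjusted p = 0.00035). Plasma cells use these genes heavily, and summed plasma cell genes were 571.5 to 1114 CPM in middle-aged and 3517 to 22660 CPM in old bladders. Their part in the rise was not tested.

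The start regions of 3 of these genes are printed because they share the element of the unfolded protein response, CCAAT followed by 9 bases of any kind and CCACG, here in capitals on either strand. They are RefSeq sequences (GRCm38.p6) of the same extent as above, all on the plus strand, at chr2:34771840-34772139 for Hspa5, chr15:88819396-88819695 for Creld2 and chr10:75893148-75893447 for Derl3.
Hspa5: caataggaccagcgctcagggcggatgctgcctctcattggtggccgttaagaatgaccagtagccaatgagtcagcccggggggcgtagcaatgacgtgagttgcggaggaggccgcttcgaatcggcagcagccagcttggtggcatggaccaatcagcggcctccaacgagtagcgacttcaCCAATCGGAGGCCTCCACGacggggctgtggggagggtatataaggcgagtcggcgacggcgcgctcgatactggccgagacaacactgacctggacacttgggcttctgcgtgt
Creld2: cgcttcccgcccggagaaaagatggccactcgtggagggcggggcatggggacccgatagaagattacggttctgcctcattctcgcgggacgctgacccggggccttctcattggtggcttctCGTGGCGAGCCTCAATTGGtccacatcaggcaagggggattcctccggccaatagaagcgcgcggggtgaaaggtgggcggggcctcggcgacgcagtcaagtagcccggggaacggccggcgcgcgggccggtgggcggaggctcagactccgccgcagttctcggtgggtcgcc
Derl3: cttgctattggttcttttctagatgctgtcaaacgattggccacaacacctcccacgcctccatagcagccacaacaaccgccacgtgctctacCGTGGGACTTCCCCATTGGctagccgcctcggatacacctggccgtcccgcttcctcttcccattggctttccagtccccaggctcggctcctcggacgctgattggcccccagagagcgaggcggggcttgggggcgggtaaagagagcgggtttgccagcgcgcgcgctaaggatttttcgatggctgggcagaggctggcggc
The element was found in 9 of the 28 promoters matched by symbol (33 list members), or 32.1%, against 35 of 27025 promoters, or 0.130%, and 8 of the 9 genes were called higher in old bladders. The element is how such genes are known, so its presence among list members describes the list.

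Cell cycle genes were the list with the largest share of higher members outside the immune lists, 35 of 50 and 0 lower (median 0.70). Mki67, a marker of dividing cells, measured 5.603, 6.69, 2.895, 4.31 and 3.78 CPM in middle-aged bladders and 10.8 to 31.8 CPM (median 21.7) in old bladders. Values of the groups did not overlap (log2 fold change 2.20 ± 0.26 SE, adjusted p = 9.00e-05). Top2a (log2 fold change 1.64 ± 0.24 SE, adjusted p = 0.00044) and Ccnb1 (log2 fold change 1.95 ± 0.35 SE, adjusted p = 0.0014) rose, while Mcm7 (log2 fold change 0.09 ± 0.05 SE, adjusted p = 0.22) was not called. Dividing lymphocytes carry these transcripts too, and their part was not tested. A single fit of all 6 groups gave 22 calls.

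Most immune lists had higher members and none lower, and they are given by their counts: T cells 28 of 28, MHC class II 14 of 14, MHC class I 18 of 18, interferon-stimulated genes 40 of 44, B cells 17 of 20, pan-leukocyte genes 11 of 12, macrophages and monocytes 19 of 28, and complement 13 of 29 higher, each with 0 lower. Mast cell genes had 1 higher and 1 lower of 7 tested (14 listed), and neutrophil genes 1 higher and 1 lower of 3 tested (15 listed). Among dendritic cell genes 8 of 17 were higher and 1 lower, the chemokine gene Ccl17 (log2 fold change -1.60 ± 0.53 SE, adjusted p = 0.046). When bladders were left out in turn, the call was lost for Ccl17 (without middle-aged 1 or 5 and old 1, 2, 3, 5 or 6, adjusted p up to 0.14).

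The largest single changes outside the immune lists included genes of low level in whole bladder. Cacna1e, the pore of the R-type calcium channel, rose to 9.75 to 34.1 CPM (median 12.7) in old bladders from 1.31, 1.06, 1.68, 0.8402 and 2.02 CPM (log2 fold change 3.50 ± 0.37 SE, adjusted p = 3.91e-05), and Cacna1i, of a T-type channel, from 0.0328, 0.06399, 0.303, 0.02801 and 0.219 CPM to 1.43 to 7.24 CPM (median 2.62) (log2 fold change 4.69 ± 0.60 SE, adjusted p = 0.00015). Gpr55, a lipid receptor (log2 fold change 3.74 ± 0.45 SE, adjusted p = 9.70e-05), and the serine protease inhibitor gene Serpina3f (log2 fold change 4.74 ± 0.48 SE, adjusted p = 2.55e-05) also separated the groups. Being outside the immune lists does not show that leukocytes lack a transcript. Summed B cell genes were 68.1 to 84.0 CPM in middle-aged and 218 to 488 CPM in old bladders. The part of leukocytes in these rises was not tested. Among the falls, Kcnt1, a sodium-activated potassium channel, stood at 3.31, 2.304, 2.92, 2.69 and 3.12 CPM at 10 months and 1.19 to 1.69 CPM (median 1.46) at 26 months. Its groups did not overlap (log2 fold change -1.002 ± 0.13 SE, adjusted p = 0.00014). Ddit4l, an inhibitor of mTOR signalling (log2 fold change -0.90 ± 0.10 SE, adjusted p = 7.38e-05), Abca4 (log2 fold change -0.87 ± 0.14 SE, adjusted p = 0.00066), Susd5 (log2 fold change -0.88 ± 0.14 SE, adjusted p = 0.00073) and Tmem61 (log2 fold change -0.89 ± 0.19 SE, adjusted p = 0.0054) were lower by close to the same amount. Skeletal muscle genes, which mark striated muscle of the outlet, were divided, with 5 higher (20%) and 4 lower (16%) of 25 tested (43 listed), against 13% and 11% over all genes. Scn4a (log2 fold change 2.64 ± 0.32 SE, adjusted p = 0.00011) and Myh2 (log2 fold change 1.56 ± 0.36 SE, adjusted p = 0.0075) rose, whereas Hhatl (-1.41) and Trdn fell. Summed genes of the list were 590.8 to 901.1 CPM in middle-aged and 510.5 to 637.2 CPM in old bladders. The 5 higher became 2 in a single fit of all 6 groups.

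The same lists were read in the gavaged old controls against young bladders, a wider age span in which gavage and age cannot be told apart. There 4191 of 17125 genes were called, 12.4% lower and 12.1% higher. Detrusor lists had the same direction: 20 of 48 ion channel genes and 14 of 30 contractile genes were lower, 10 of the 13 and 6 of the 9 called in late aging among them. Blood endothelium (14 of 40 lower), fibroblasts (15 of 30), collagen chains (27 of 38, median -0.70) and Schwann cell genes (16 of 28, median -0.44) were also lower. Of complex I 4 of 37 subunits were lower there (median -0.04), and of complexes II to V 3 of 43. Superficial urothelium had 5 higher and 0 lower of 19, HOX genes 9 higher and 1 lower of 36, and ribosomal proteins 57 higher and 0 lower of 77. Fkbp5 (log2 fold change 1.20 ± 0.12 SE, adjusted p = 6.22e-06) and Zbtb16 (log2 fold change 1.005 ± 0.23 SE, adjusted p = 0.0049) were higher in this comparison as well, but Chrm2 (log2 fold change 0.22 ± 0.27 SE, adjusted p = 0.61) and Ccn2 (log2 fold change -0.03 ± 0.60 SE, adjusted p = 0.98) were not called. Of 30 tested steroid genes, 3 were higher and 1 lower there (median 0.02). Only 2 of the 6 steroid genes that rose in late aging were higher in both. Cell cycle genes had 1 higher and 7 lower of 50. Endoplasmic reticulum stress response genes had 6 higher and 2 lower of 33, immediate early genes 1 higher and 3 lower of 35. Interferon-stimulated genes had 5 higher and 0 lower of 44. Without vehicle replicate 1, whose immunoglobulin share was 0.0245% against 0.447 to 1.41% in the other 8 gavaged bladders, 4124 genes were called. The difference between the 2 comparisons was not tested for any list.

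**Figure D5:**
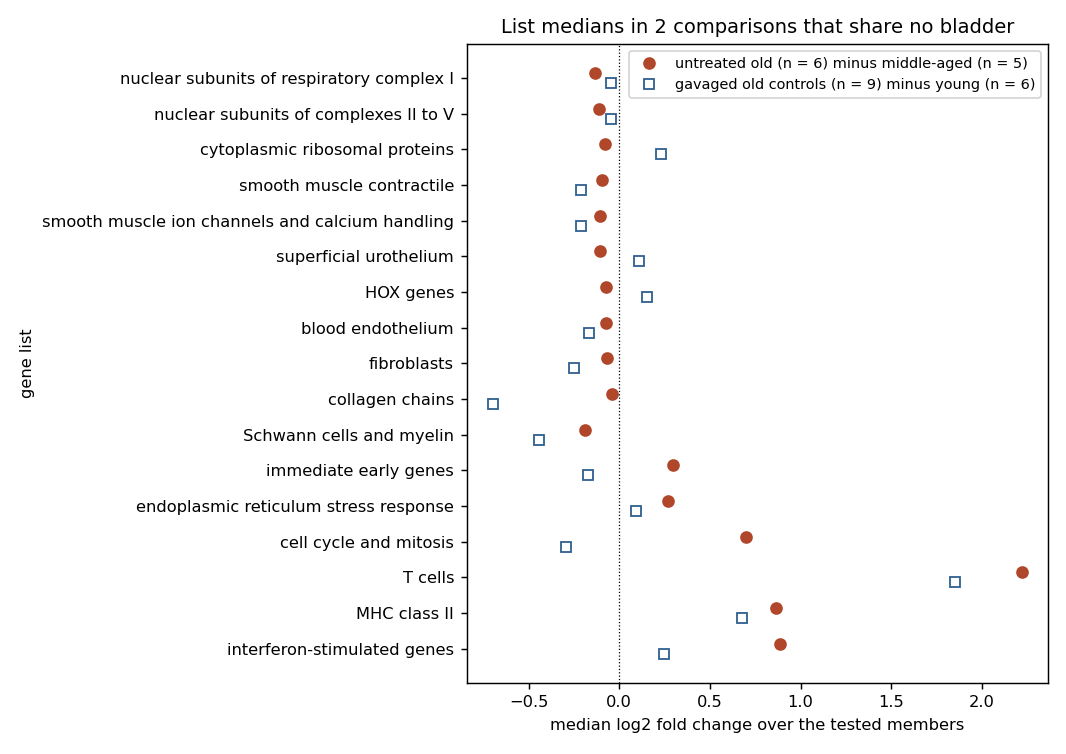
Median log2 fold change over the tested members of 17 lists in untreated old minus middle-aged bladders (filled circles) and in gavaged old controls minus young bladders (open squares), which share no bladder. Muscle, fibroblast, collagen and Schwann lists lie below 0 in both, whereas lists such as ribosomal proteins (-0.08 and 0.23), superficial urothelium (-0.11 and 0.11) and cell cycle genes (0.70 and -0.29) lie on opposite sides.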

How the data were processed

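Bulk RNA-seq of whole mouse bladders was analysed. The authors aligned reads with STAR 2.7.3 to mm10 and counted them per gene with Subread featureCounts, and the count table was deposited without normalization. The deposited log2 values were recomputed from the counts: they are the log2 of (count + 1) divided by gene length, scaled to a sum of 100000 per library. The gene length in bases is the other column deposited with the counts and was used only for those values. The strand setting of the counting is not given in the sources used here, so reads of overlapping genes cannot be told apart.

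Samples were grouped by their labels. Counts of the 2 groups compared were filtered with filterByExpr, scaled with TMM factors and tested with edgeR 4.0.16 (quasi-likelihood F test, Benjamini-Hochberg adjusted p under 0.05) in R 4.3.3. The standard error of a log2 fold change was taken from the F statistic. Levels are CPM (counts scaled to library size) with TMM factors, not scaled by gene length. No 2 bladders had identical counts. The p-values measure the spread between bladders, and the labels do not say whether bladders shared a cage, litter or day. The model was tested on simulated data.

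The bladders compared and the 73 gene lists (14 of them immune) were chosen with earlier results of these data known, so no list was tested as a set. Lists are described by counts of called members and medians beside the same over all genes. Genes were chosen from those given by a rule, with their values known, and not all of them are printed: the 12 largest rises and 12 largest falls that separated the groups at 1 CPM or more, outside immune genes and clone-named models, the 2 largest rises and falls of each list, and other list members where their list is described. Alternatives used DESeq2 1.42.0, limma 3.58.1, other scalings and filters, a block for the replicate number, a fit of all 6 groups, and fits without each bladder. Promoters were matched by symbol to RefSeq sequences. The drug-treated bladders entered only the fit of all 6 groups. Results for some list members are not reported here.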

Additional observations from a re-analysis of the deposited data

Results flagged for a closer look

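The values of 165 genes were looked at in both groups, 330 gene and group pairs in all, for a bladder whose gap to the nearest of the others was large against the range of its group. Such a gap was found in 20 pairs, and chance alone gives about 1 in 20 groups. Among muscle, vessel and matrix genes of the untreated old group, Cacna1e reached 34.06 CPM in replicate 1 (the others 9.751 to 14.77), Ccn2 130.7 CPM in replicate 2 (48.71 to 74.41), Itga8 70.02 CPM in replicate 5 (41.21 to 49.95), Grem1 2.63 CPM in replicate 5 (0.8447 to 1.202) and Lum 239.3 CPM in replicate 4 (167.8 to 193.1). In the urothelium of old bladders, Krt14 reached 7.648 CPM (0.347 to 1.202) and Upk3a fell to 612.6 CPM (688.2 to 710.6), both in replicate 5, and Epcam reached 58.62 CPM in replicate 4 (47.95 to 51.83).

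The other old bladders set apart were replicate 2 for Dusp1, an immediate early gene, at 70.27 CPM (22.72 to 37.72), replicate 6 for Cysltr2 at 4.241 CPM (2.046 to 2.761), replicate 4 for Pdk2 at 77.41 CPM (65.5 to 69.95) and for mt-Nd4 at 2623 CPM (2387 to 2464), replicate 1 for Phlda2 at 7.717 CPM (5.031 to 6.019), and replicate 5 for Slc29a1 at 86.29 CPM (102 to 109). In middle-aged bladders they were replicate 1 for Nr4a1 at 81.68 CPM (14.28 to 31.99) and Ccl17 at 2.654 CPM (0.4411 to 0.7842), replicate 5 for Col12a1 at 803.6 CPM (505.2 to 590.4), replicate 6 for Glycam1 at 0.6021 CPM (0 to 0.02757) and Ncam1 at 43.76 CPM (41.41 to 41.98), and replicate 2 for Npas2 at 14.14 CPM (10.67 to 11.11). Of the 20, 1 lay in untreated old replicate 6, the library least like its group.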

How the results depend on the processing

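A single fit of all 6 groups had the strongest effect: 2519 genes were called in place of 4110, 901 in place of 1879 were lower, and 462 in place of 746 members of the gene lists were called, while 43 of the 158 named genes called in the report lost their call. Between 3748 and 4617 genes were called under the other tests, scalings and filters. Leaving out single bladders gave 3391 to 4097 genes. No named gene that was called changed direction under any alternative. The replicate number as a block, over the 5 numbers that both groups have, gave 3379 genes in place of 4110. Bladders with the same number deviated together only weakly (correlations 0.0391 to 0.205, with 2 of 5 bladders correlating best with their own number), so the numbers were not taken as a pairing. For gavaged old controls against young bladders, vehicle-gavaged bladders alone gave 1605 genes and water-gavaged bladders alone 2904, in place of 4191. A fit without vehicle replicate 1, added after seeing the data, gave 4124. The cause of these differences was not tested. Falls of 10 to 20% rest on 5 and 6 bladders and on TMM scaling. Genes under about 1 CPM rest on few reads per library. Whole-bladder RNA does not separate cell number from level per cell.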

Other observations

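Eicosanoid genes had 12 higher (32.4%) and 3 lower (8.11%) of 37 tested (40 listed), against 13% and 11% over all genes. Ptgs2, inducible cyclooxygenase, measured 11.01, 8.54, 5.71, 7.98 and 8.68 CPM in the middle-aged group and 18.03 to 27.2 CPM (median 21.9) in the old group and rose without overlap (log2 fold change 1.38 ± 0.15 SE, adjusted p = 3.57e-05). Ptgs1, the constitutive enzyme, rose less (log2 fold change 0.39 ± 0.07 SE, adjusted p = 0.0013), and the enzyme that breaks prostaglandins down, Hpgd, fell (log2 fold change -0.28 ± 0.07 SE, adjusted p = 0.015). Cysltr2, a leukotriene receptor, was higher (log2 fold change 0.91 ± 0.20 SE, adjusted p = 0.0059), and Alox12 was lower (log2 fold change -0.31 ± 0.07 SE, adjusted p = 0.0078). No alternative moved the count of 12 by more than 1.5-fold. Summed macrophage and monocyte genes were 1125 to 1288 CPM in middle-aged and 1498 to 2221 CPM in old bladders. The part of leukocytes in the eicosanoid rises was not tested.

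Imprinted growth genes and binders of Igf2 mRNA had 4 lower (12.9%) and 3 higher (9.68%) of 31 tested (34 listed), near the 11% and 13% over all genes. The 3 higher became 1 without middle-aged replicates 1, 5 or 6 and 0 in a single fit of all 6 groups, and the 4 lower became 7 without old replicates 4 or 5 or with limma. Phlda2, an imprinted restrainer of placental growth, stood at 9.600, 11.6, 8.44, 10.1 and 9.58 CPM in middle-aged bladders and 5.03 to 7.72 CPM (median 5.49) in old bladders, which did not overlap (log2 fold change -0.77 ± 0.12 SE, adjusted p = 0.00054). Igf2 (log2 fold change -0.32 ± 0.06 SE, adjusted p = 0.0013) and Mest (log2 fold change -0.36 ± 0.09 SE, adjusted p = 0.013) were also lower, and Lin28b, which blocks let-7 maturation, was higher (log2 fold change 0.82 ± 0.17 SE, adjusted p = 0.0048). Antioxidant and xenobiotic genes had 8 higher and 11 lower of 71 tested (72 listed), near the shares over all genes, and 4 and 2 in a single fit of all 6 groups. Mesothelial genes had 4 higher and 1 lower of 14, including Gpm6a (log2 fold change 0.45 ± 0.08 SE, adjusted p = 0.0014). Adipocyte genes had 3 lower (15.8%, against 11% over all genes) and 0 higher of 19 tested (20 listed). The list median was 0.23, and only 5 of the 19 had a log2 fold change below 0. Besides Slc2a4, the lower genes were Cidea (log2 fold change -0.86 ± 0.17 SE, adjusted p = 0.0027) and Plin4 (log2 fold change -0.22 ± 0.06 SE, adjusted p = 0.02). The call did not hold without single bladders for Plin4 (without middle-aged 4 or 6, adjusted p up to 0.052).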
